A study of Mus musculus with 9 samples.

Results

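The genes described here are 10 components of insulin and insulin-like growth factor (IGF) signalling, read from a gene expression table of 17527 symbols by their names. They are the receptors Insr, Igf1r and Igf2r, the adaptors Irs1 and Irs2, the transcription factors Foxo1, Foxo3 and Foxo4, and the kinases Gsk3a and Gsk3b. All 10 were present and all 10 passed the filter on low counts that left 13711 genes for testing. RNA was sequenced from the anterior lens capsule of mice, a tissue made of a basement membrane and the lens epithelium beneath it. The series compared aged mice given epigallocatechin gallate (EGCG, the main catechin of green tea), aged control mice and young control mice, with 3 libraries in each group. The sources used here do not give the strain, age or sex of the mice, the dose or route of EGCG, how long it was given, or whether a library came from 1 animal or a pool. P-values therefore measure the spread between these libraries only, which may be technical.

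Insulin and the IGFs bind the tyrosine kinase receptors encoded by Insr and Igf1r, which phosphorylate the IRS adaptors and, through PI3-kinase, activate AKT. AKT then phosphorylates FOXO transcription factors, which leave the nucleus and stop activating their targets, and GSK3 kinases, which are inhibited by it. Igf2r encodes a receptor without kinase activity that binds IGF2 and mannose 6-phosphate and carries both to lysosomes. In the lens, IGFs are known as factors of epithelial survival and fibre cell differentiation. Most of this pathway is controlled by phosphorylation and by movement between cell compartments, neither of which transcript levels measure.

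The library totals ranged from 13184169 to 16528179 counts, and the 10 genes had between 243 and 1828 counts in a library. Levels are given as CPM, the share of a library's counts on a common scale after TMM adjustment. The summed share of counts of 10 lens epithelium markers (among them Pax6, Foxe3 and Cdh1) was 2.23% to 2.29% in aged EGCG, 2.54% to 2.70% in aged control and 1.84% in all young control libraries, and none was at 0 in any group. Cryab, a crystallin gene that fibre cells also express, made up 76.7% to 81.5% of that sum. Without it the share was 0.517% to 0.532% in aged EGCG, 0.477% to 0.516% in aged control and 0.385% to 0.390% in young control libraries. Of the 10 markers, 8 were called higher and 1 lower in aged control than in young control, and 1 higher and 5 lower in aged EGCG than in aged control. Of all genes tested, 35.4% were called higher and 33.8% lower in the first comparison, and 13.8% and 10.3% in the second. The share of 20 lens fibre genes was larger than that of the epithelium markers. It was 3.96% to 4.08% in aged EGCG, 4.12% to 4.31% in aged control and 4.80% to 4.81% in young control libraries. The 31 retina markers were also detected. Their share was 1.14% to 1.15% in aged EGCG, 0.146% to 0.156% in aged control and 2.96% to 2.99% in young control libraries, with no marker at 0 in any group. Of these retina genes, 30 of 31 were called higher in aged EGCG than in aged control, and 31 of 31 lower in aged control than in young control. Red blood cell markers made up at most 0.024% of counts in a library. With age 5 of 5 tested were called lower, and with EGCG 4 were called higher and 0 lower. The part of fibre, retinal or blood RNA in the results on the 10 genes was not tested.

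Levels of the 10 genes were compared per kilobase, since their lengths, as implied by the authors' deposited values, ran from 2260 bases (Gsk3a) to 12973 bases (Igf1r). These lengths differ from the exon bases of the GENCODE M21 annotation. Foxo4 had 5043 implied against 3485 exon bases, Insr 9391 against 13746 and Foxo1 5552 against 8665. The order of levels below therefore rests on the implied lengths. As a mean of 9 libraries, Gsk3a was the highest at 37.6 CPM per kilobase, followed by Foxo3 at 11.01 CPM per kilobase. Foxo4 (7.55), Irs1 (7.52), Igf2r (7.04), Gsk3b (7.01), Insr (6.40) and Igf1r (6.27 CPM per kilobase) lay close together. Foxo1 had 3.95 and Irs2 had 2.89 CPM per kilobase. The 9-library ranges of neighbours in this order overlapped except between Gsk3a and Foxo3 and between Foxo1 and Irs2. Gsk3a was the highest, Foxo1 the ninth and Irs2 the lowest in each of the 3 groups, whereas Gsk3b was the second highest in young control, the seventh in aged EGCG and the eighth in aged control libraries.

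The promoters of the adaptors and of the GSK3 kinases are printed because the members of each pair differed most in their change with age among the related pairs tested. The windows run from 250 bases before to 50 bases after the RefSeq transcription start on GRCm38.p6, 5′ to 3′ on the gene's strand. Such windows were at hand for 8 of the 10 genes, all but Insr and Foxo4. For the adaptors, capitals mark CACGTG, the E-box, and CAAAACA or its reverse complement TGTTTTG, a letter string that resembles the FOXO binding motif. The Irs1 window lies at chr1:82291390-82291689 and the Irs2 window at chr8:11008880-11009179, both on the minus strand. The Irs2 window lies wholly upstream of the gene as annotated in GENCODE M21, which reaches to 11008458. Its distances hold for the RefSeq start only.
Irs1: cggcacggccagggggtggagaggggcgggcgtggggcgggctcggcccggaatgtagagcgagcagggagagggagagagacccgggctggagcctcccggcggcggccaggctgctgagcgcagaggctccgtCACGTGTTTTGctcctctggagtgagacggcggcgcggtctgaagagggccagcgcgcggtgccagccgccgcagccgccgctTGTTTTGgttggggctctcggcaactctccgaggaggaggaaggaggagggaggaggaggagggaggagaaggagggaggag
Irs2: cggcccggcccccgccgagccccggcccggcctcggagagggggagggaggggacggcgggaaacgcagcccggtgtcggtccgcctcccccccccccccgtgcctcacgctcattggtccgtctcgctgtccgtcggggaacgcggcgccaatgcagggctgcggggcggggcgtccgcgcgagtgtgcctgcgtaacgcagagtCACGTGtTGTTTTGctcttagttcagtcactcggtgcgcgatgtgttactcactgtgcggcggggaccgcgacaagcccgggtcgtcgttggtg

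Both adaptor windows hold CACGTG and TGTTTTG. In Irs1 the E-box begins 115 bases before the start and the first TGTTTTG begins 111 bases before it, so that the strings overlap; another TGTTTTG begins 32 bases before the start. In Irs2 the E-box begins 44 bases and TGTTTTG 37 bases before the start, without overlap. Among 32851 RefSeq windows of the same length, 7.15% hold CACGTG, 6.28% hold CAAAACA on either strand and 0.408% hold both. The full FOXO consensus GTAAACA, present on either strand in 3.65% of all windows, was in 0 of the 8 windows. These matches describe letters and not binding.

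For the GSK3 kinases, capitals mark CCAAT, the CCAAT box, or its reverse complement ATTGG, which 37.4% of all windows hold. The Foxo1 and Irs2 windows hold it too, and it is not marked in the Irs2 sequence above. The Gsk3a window lies at chr7:25237802-25238101 on the minus strand and the Gsk3b window at chr16:38088751-38089050 on the plus strand.
Gsk3a: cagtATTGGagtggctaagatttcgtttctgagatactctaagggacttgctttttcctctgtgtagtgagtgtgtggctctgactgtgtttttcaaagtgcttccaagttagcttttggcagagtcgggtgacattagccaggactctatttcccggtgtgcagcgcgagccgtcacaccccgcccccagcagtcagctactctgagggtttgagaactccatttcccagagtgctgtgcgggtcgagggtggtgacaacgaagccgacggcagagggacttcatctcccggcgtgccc
Gsk3b: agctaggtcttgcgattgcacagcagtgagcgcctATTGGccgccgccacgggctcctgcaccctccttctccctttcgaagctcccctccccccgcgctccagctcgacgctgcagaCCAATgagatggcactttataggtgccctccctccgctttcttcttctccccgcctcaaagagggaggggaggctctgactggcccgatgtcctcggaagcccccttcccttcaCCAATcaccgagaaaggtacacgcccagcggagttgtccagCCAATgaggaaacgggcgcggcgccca

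The Gsk3a window has 1 match, which begins 246 bases before the start. The Gsk3b window has 4 matches, beginning 215, 132 and 18 bases before and 24 bases after the start. The GC content was 71.3% for Irs1, 72.0% for Irs2, 54.3% for Gsk3a and 63.0% for Gsk3b, against a median of 52.7% over all windows (quartiles 45.7% and 61.7%).

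The changes with age that kept their direction and call in all 18 alternative analyses were those of the adaptor Irs1 (1.94-fold higher in aged control than in young control), the factor Foxo4 (1.62-fold higher) and the kinase Gsk3b (1.74-fold lower). Comparing aged control with young control, 4 of the 10 genes rose (Irs1, Foxo3, Foxo4 and Gsk3a) and 3 fell (Insr, Igf1r and Gsk3b), by edgeR's quasi-likelihood test at a Benjamini-Hochberg adjusted p under 0.05. In this comparison 69.2% of all genes tested were called (35.4% higher, 33.8% lower), so 7 of 10 is near the background. The comparison of aged EGCG with aged control called 3 of the 10, Igf1r, Foxo1 and Foxo3, all lower, beside 24.1% of all genes (13.8% higher, 10.3% lower). The comparison of aged EGCG with young control called 7 of the 10, of which Irs1, Foxo3, Foxo4 and Gsk3a were higher and Igf1r, Igf2r and Gsk3b lower, beside 63.6% of all genes (32.3% higher, 31.4% lower). Any 2 of these comparisons share the libraries of 1 group, so their values are set side by side and not correlated.

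**Figure D1:**
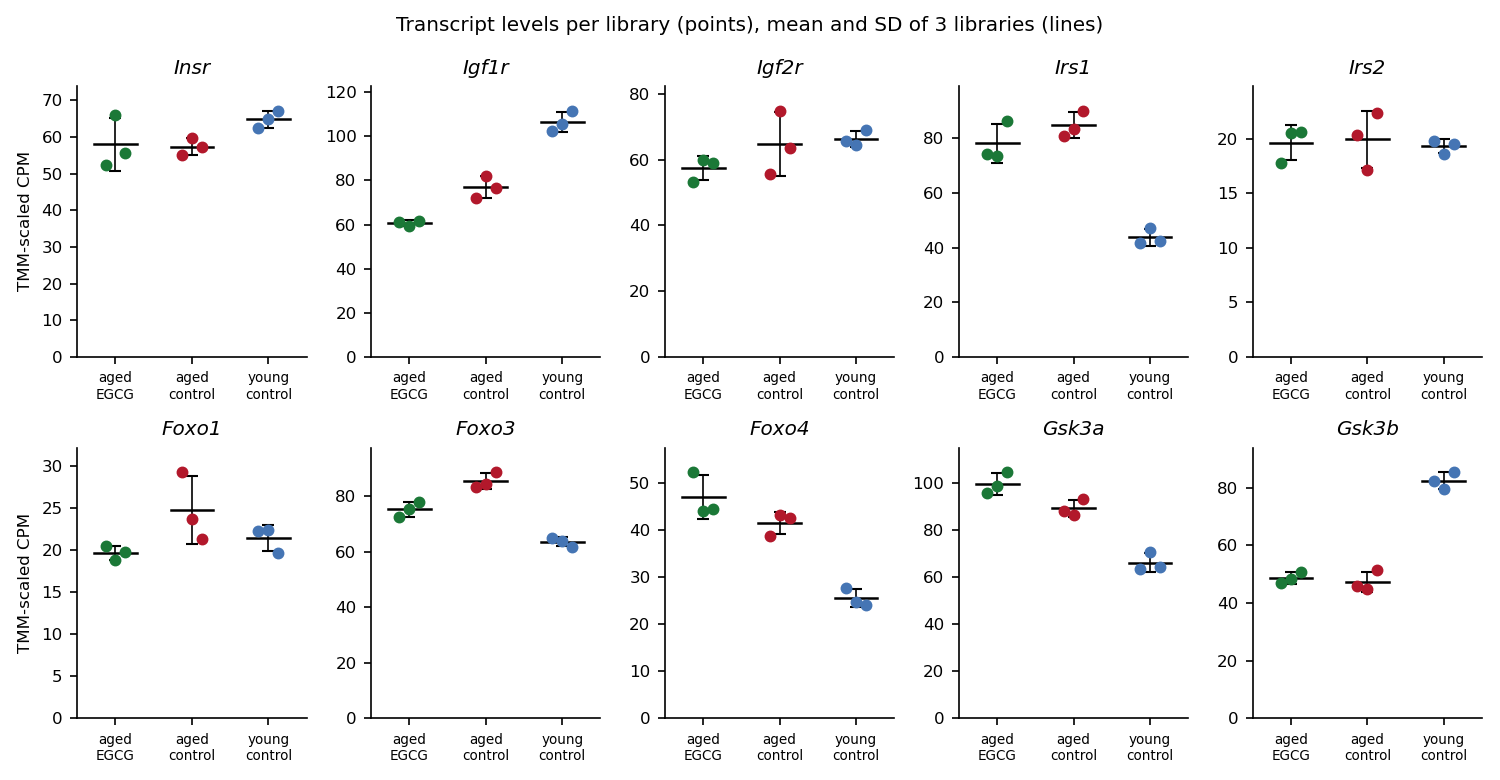
Levels of the 10 genes in TMM-scaled CPM (y axes, from 0) in the 3 aged EGCG, 3 aged control and 3 young control libraries. Points are libraries and lines the mean ± SD. Irs1, Foxo3, Foxo4 and Gsk3a lie higher and Gsk3b and Igf1r lower in all 6 aged libraries than in the 3 young ones.

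Igf1r, the IGF1 receptor, was the only one of the 10 genes called in all 3 comparisons in the same direction. Its level was 61.3, 59.1 and 61.6 CPM in aged EGCG, 72.1, 82.2 and 76.7 CPM in aged control and 102, 106 and 112 CPM in young control libraries. The groups formed 3 separate steps, lowest in aged EGCG and highest in young control, with no overlap. In aged EGCG it fell to 60.7 ± 1.32 CPM, against 77.0 ± 5.08 CPM in aged control (SD, n = 3 each). The log2 fold change was -0.34 (SE 0.068, 95% interval -0.48 to -0.21; edgeR adjusted p = 8.47e-05). In aged control it was lower than in young control (107 ± 4.75 CPM), and the log2 fold change was -0.47 (SE 0.065; edgeR adjusted p = 1.83e-08). The log2 fold change of aged EGCG over young control was -0.81 (SE 0.066; edgeR adjusted p = 7.68e-15). In bulk tissue, fewer cells of a type and less RNA per cell cannot be told apart.

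The call of Igf1r between aged EGCG and aged control held when any 1 of the 9 libraries was left out (log2 fold changes from -0.39 to -0.29). It was lost in 3 of the 18 alternatives, the scaling to lens fibre genes (a log2 fold change of -0.15) and limma on log2 FPKM with either pseudocount. The call between aged control and young control was lost and its direction turned where the trend of fold change with gene length was removed (0.06, edgeR adjusted p = 0.412). Igf1r was the longest of the 10 genes, and over all genes the log2 fold change in that comparison fell with length (Spearman rho -0.33 across genes, which are not independent replicates). The 10% of genes with the shortest transcripts had a median log2 fold change of 0.52 and the 10% with the longest one of -0.57.

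Insr, the insulin receptor, varied less. Its level was 52.4, 66.1 and 55.5 CPM in aged EGCG, 55.1, 59.8 and 57.2 CPM in aged control and 62.5, 64.8 and 67.2 CPM in young control libraries. The aged control libraries all lay below the young ones, and the aged EGCG libraries spanned both groups. Insr was lower in aged control than in young control, with a change of -0.18 on the log2 scale (SE 0.077; edgeR adjusted p = 0.0404). The call was lost without aged control library 1 (adjusted p = 0.134) or 3 (0.0753), or young control library 2 (0.0728) or 3 (0.140), and the value turned to a called 0.23 where the length trend was removed. Aged EGCG over aged control gave a log2 fold change of 0.02 (95% interval -0.14 to 0.17; edgeR adjusted p = 0.915).

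Igf2r, the lysosomal IGF2 receptor, had 53.4, 59.9 and 59.1 CPM in aged EGCG, 55.7, 74.9 and 63.5 CPM in aged control and 65.7, 64.4 and 69.0 CPM in young control libraries. Aged control library 2 was the highest of all 9, and the aged control range covered that of young control and overlapped with that of aged EGCG. Igf2r was called only between aged EGCG and young control, where the change was -0.21 on the log2 scale (SE 0.080; edgeR adjusted p = 0.0223). That call was lost without aged EGCG library 1 (adjusted p = 0.131) or young control library 3 (0.101), and the value turned to 0.16 with the length trend removed. The value for aged EGCG over aged control was -0.17 (edgeR adjusted p = 0.125), which reached an adjusted p of 0.0110 without aged control library 1. With age the value was -0.04 and not called, but -0.36 on library size alone and 0.35 with the length trend removed, both called.

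The adaptor Irs1, the first substrate described for the insulin receptor, was higher in both aged groups than in young tissue. Its level was 74.3, 73.6 and 86.4 CPM in aged EGCG, 80.9, 83.6 and 90.1 CPM in aged control and 41.5, 47.3 and 42.5 CPM in young control libraries. All 6 aged libraries lay above all 3 young ones, and the aged groups overlapped. Irs1 rose to 84.9 ± 4.73 CPM in aged control, against 43.8 ± 3.10 CPM in young control (SD, n = 3 each), 1.94-fold or 0.95 on the log2 scale (SE 0.075, 95% interval 0.80 to 1.11; edgeR adjusted p = 1.39e-15). In aged EGCG it was 1.78-fold above young control (edgeR adjusted p = 1.86e-13). With EGCG in aged tissue the log2 fold change was -0.12 (95% interval -0.27 to 0.03; edgeR adjusted p = 0.254). Both calls against young control held in 18 of 18 alternatives, including the removal of the length trend, where the value for aged control was 1.35.

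Irs2, the related adaptor with a main role in liver and pancreatic beta cells, stayed between 17.2 and 22.4 CPM in all 9 libraries, and all 3 groups overlapped. Its means were 19.6 ± 1.60 CPM in aged EGCG, 19.97 ± 2.62 CPM in aged control and 19.3 ± 0.614 CPM in young control (SD, n = 3 each). The log2 fold change was -0.02 (95% interval -0.27 to 0.22) between aged EGCG and aged control and 0.04 (-0.20 to 0.29) between aged control and young control, neither called. The second value was called in opposite directions in 2 of the 18 alternatives, -0.28 on library size alone (adjusted p = 0.0447) and 0.30 with the length trend removed (adjusted p = 0.0221).

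The 3 FOXO genes did not share 1 pattern. Foxo4 had 52.4, 44.1 and 44.5 CPM in aged EGCG, 38.9, 43.3 and 42.6 CPM in aged control and 27.7, 24.9 and 24.2 CPM in young control libraries. The groups did not overlap, although the lowest aged EGCG library lay only just above the highest aged control library. Foxo4 was 1.62-fold higher in aged control than in young control (log2 fold change 0.70, SE 0.094; edgeR adjusted p = 8.66e-09) and 1.84-fold higher in aged EGCG than in young control (edgeR adjusted p = 2.77e-11), both kept in 18 of 18 alternatives. The log2 fold change between aged EGCG and aged control, 0.18 (95% interval -0.01 to 0.36), was not called (edgeR adjusted p = 0.167). It was called at 0.30 on library size alone (adjusted p = 0.0121), 0.37 on lens fibre scaling (0.00122) and 0.30 with limma on log2(FPKM + 0.1) (0.0490).

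Foxo3, the family member linked in people to longevity, was highest in aged control tissue. Its level was 72.4, 75.3 and 78.0 CPM in aged EGCG, 83.1, 84.4 and 88.6 CPM in aged control and 65.0, 63.7 and 61.8 CPM in young control libraries. The 3 groups did not overlap, and aged EGCG lay between the other two. Foxo3 rose to 85.4 ± 2.89 CPM in aged control, against 63.5 ± 1.63 CPM in young control (SD, n = 3 each). This was 0.43 on the log2 scale (SE 0.066; edgeR adjusted p = 1.93e-07). It fell to 75.2 ± 2.81 CPM in aged EGCG, against that aged control level, or by -0.18 on the log2 scale (SE 0.066; edgeR adjusted p = 0.0363). The age call was lost on library size alone (0.11) and on log2 FPKM with either pseudocount. The EGCG call was near the threshold. It was lost in 7 of the 9 fits that left out a library, with adjusted p between 0.0516 and 0.133. It was also lost on library size alone (-0.06), with limma under either pseudocount and in the fit of these 2 groups only (edgeR adjusted p = 0.0645). Its direction turned to 0.01 with the scaling to lens fibre genes. The call was kept in 6 of the 18 alternatives.

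Foxo1, the FOXO factor best known for the hepatic response to insulin, was the lowest of the 3. Its level was 20.4, 18.8 and 19.7 CPM in aged EGCG, 29.2, 23.7 and 21.3 CPM in aged control and 22.2, 22.4 and 19.6 CPM in young control libraries. Aged control library 1 stood highest of all 9, the aged groups did not overlap, and the young libraries overlapped with both. Foxo1 fell in aged EGCG relative to aged control by 0.33 on the log2 scale (SE 0.119; edgeR adjusted p = 0.0338). Without aged control library 1 the value was -0.20 with an adjusted p of 0.310, and the call was also lost without aged EGCG library 2 (adjusted p = 0.109) or 3 (0.0695). With all libraries kept, it was lost on library size alone (-0.20), on lens fibre scaling (-0.14) and with limma under either pseudocount. Between aged control and young control the value was 0.21 (95% interval -0.02 to 0.45; edgeR adjusted p = 0.105). It was called higher without aged control library 3 (0.31, adjusted p = 0.0241) and with the length trend removed (0.39, adjusted p = 0.00323), and was -0.11 on library size alone, not called.

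The kinases Gsk3a and Gsk3b, which phosphorylate glycogen synthase and beta-catenin, changed in opposite directions with age. Gsk3b had 46.8, 48.4 and 50.9 CPM in aged EGCG, 45.9, 44.9 and 51.3 CPM in aged control and 82.1, 79.5 and 85.4 CPM in young control libraries. All 3 young libraries lay far above the 6 aged ones, which overlapped. Gsk3b fell to 47.4 ± 3.44 CPM in aged control, against 82.3 ± 2.95 CPM in young control (SD, n = 3 each). This was 1.74-fold, or -0.80 on the log2 scale (SE 0.074; edgeR adjusted p = 2.63e-13). The EGCG comparison in aged tissue gave a log2 fold change of 0.04 (95% interval -0.11 to 0.19; edgeR adjusted p = 0.769). The call with age was kept in 18 of 18 alternatives and was -0.44 with the length trend removed. On lens fibre scaling the EGCG value was called at 0.24 (adjusted p = 0.0149).

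Gsk3a had 95.7, 98.6 and 105 CPM in aged EGCG, 87.9, 86.2 and 93.4 CPM in aged control and 63.4, 70.8 and 64.4 CPM in young control libraries. The 3 groups did not overlap and were highest in aged EGCG. Gsk3a was 1.35-fold higher in aged control than in young control (log2 fold change 0.43, SE 0.066; edgeR adjusted p = 1.63e-07) and 1.505-fold higher in aged EGCG than in young control (edgeR adjusted p = 8.22e-11). The first of these calls was lost on library size alone (0.11) and on log2 FPKM with either pseudocount. The log2 fold change between aged EGCG and aged control, 0.16 (95% interval 0.03 to 0.29), was not called (edgeR adjusted p = 0.0649). It was called in 6 of the 18 alternatives, at 0.29 on library size alone (adjusted p = 0.000922), 0.36 on lens fibre scaling (2.57e-05), 0.17 with the length trend removed (0.0437), 0.28 and 0.29 with limma under the 2 pseudocounts, and 0.19 without aged control library 3 (0.0356).

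**Figure D2:**
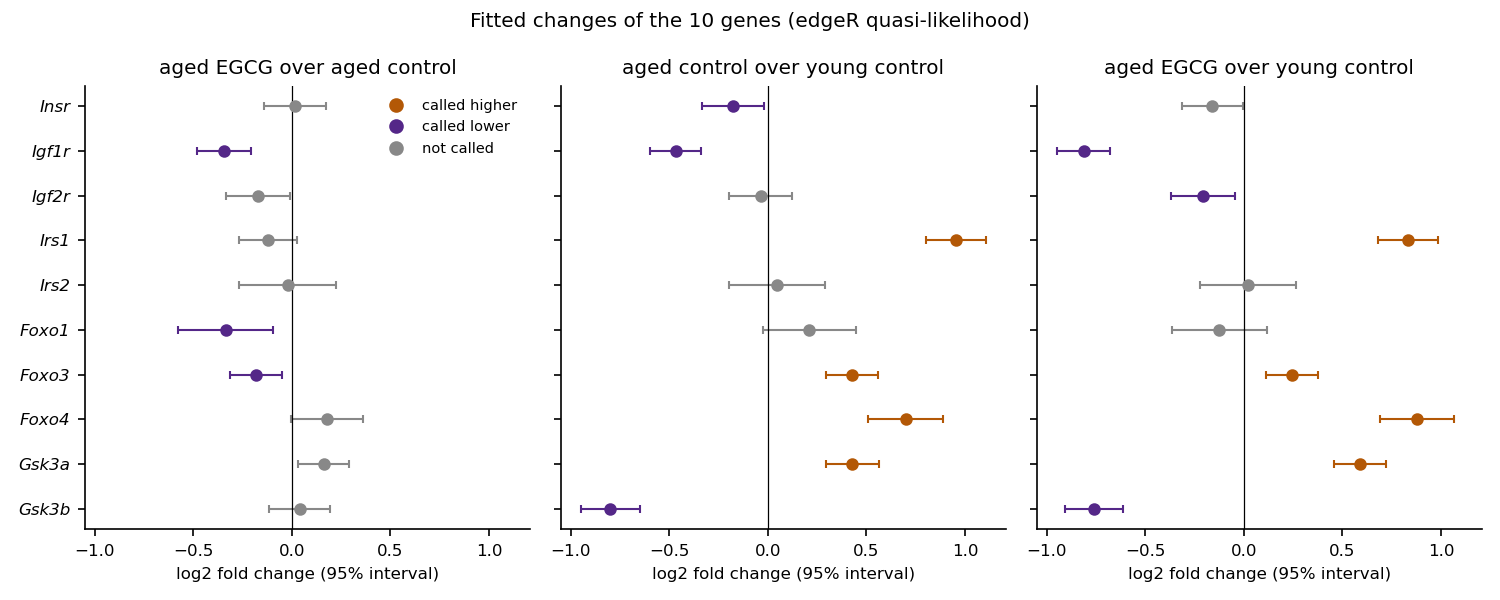
Fitted log2 fold changes (x axes) with 95% intervals for the 10 genes in the 3 comparisons, orange called higher, purple called lower, grey not called. Between aged EGCG and aged control the values lie from -0.34 (Igf1r) to 0.18 (Foxo4), and between aged control and young control from -0.80 (Gsk3b) to 0.95 (Irs1); with the length trend removed, the age values of Insr and Igf1r turn to 0.23 and 0.06, and with lens fibre scaling the EGCG value of Foxo3 turns to 0.01.

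The size of the changes was not above that of other genes. The median absolute log2 fold change of the 10 genes was 0.17 between aged EGCG and aged control, 0.43 between aged control and young control and 0.42 between aged EGCG and young control. Over all genes tested it was 0.19, 0.59 and 0.51 in the same comparisons. The groups did not overlap for 5 of the 10 genes between aged EGCG and aged control (33.5% of all genes), and for 7 of the 10 between aged control and young control (72.1%) and between aged EGCG and young control (68.3%).

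The direction of some changes rested on the scaling. The TMM factors were 0.981 to 0.989 in aged EGCG, 0.881 to 0.926 in aged control and 1.12 to 1.13 in young control libraries. On library size alone the median of all genes moved by 0.127 on the log2 scale between aged EGCG and aged control and by -0.322 between aged control and young control. With TMM, 13 of 20 lens fibre genes were called lower and 0 higher between aged EGCG and aged control (median log2 fold change -0.21). All genes had 10.3% lower and 13.8% higher. With age 14 of the 20 were called higher and 6 lower (median 0.43), beside 35.4% and 33.8% of all genes. With scaling to these 20 genes the shifts of the median of all genes were 0.198 and -0.269. The same shifts apply to the 10 genes: on lens fibre scaling 4 of them (Insr, Foxo4, Gsk3a and Gsk3b) were called higher and 0 lower between aged EGCG and aged control, when 4501 genes (32.8%) were called higher and 439 (3.20%) lower, against 1894 higher and 1406 lower with TMM. Removing the length trend called 8 of the 10 higher and 1 (Gsk3b) lower between aged control and young control, when 34.0% of all genes were called higher and 32.8% lower.

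**Figure D3:**
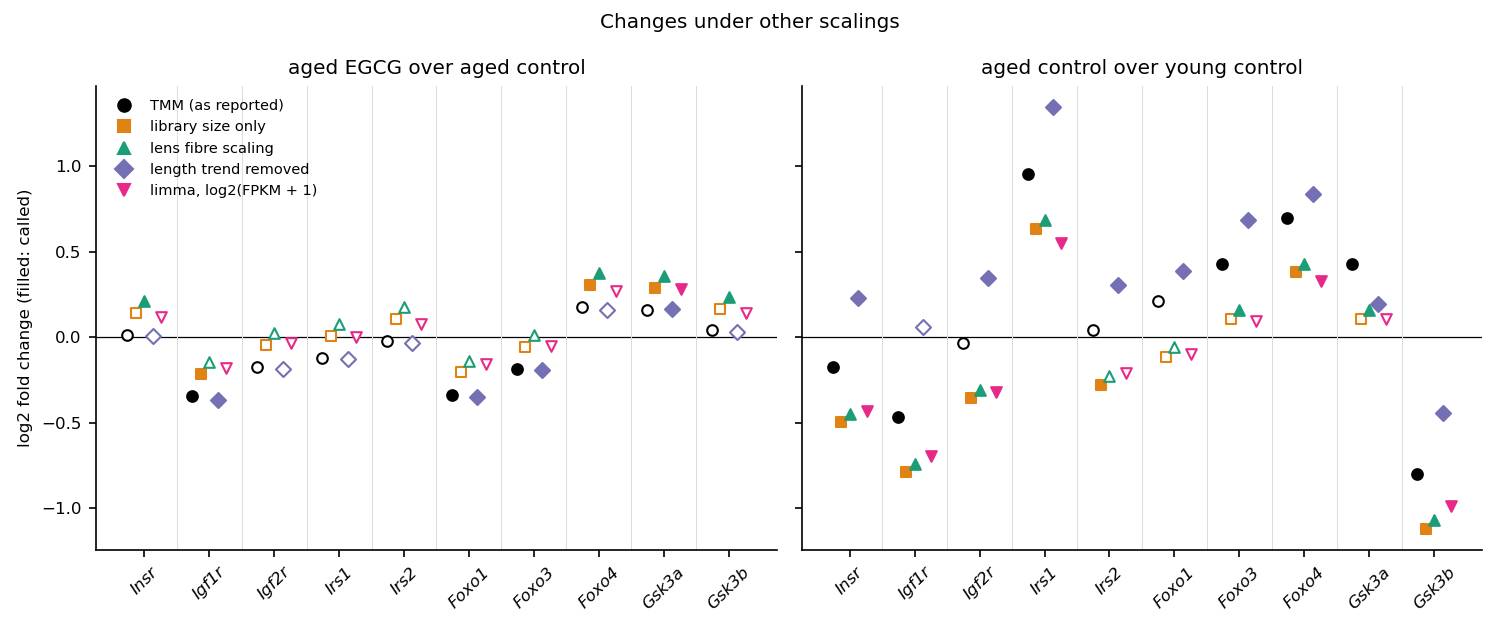
Log2 fold changes (y axis) of the 10 genes between aged EGCG and aged control (left) and between aged control and young control (right). The settings are TMM, library size alone, lens fibre scaling, length trend removed and limma on log2(FPKM + 1). The last carries the same scaling as library size alone. Filled symbols were called. Irs1 (0.95), Foxo4 (0.70) and Gsk3b (-0.80, all TMM) kept their direction and call with age under each scaling shown, whereas the age value of Igf1r turned to 0.06 and that of Insr to 0.23 without the length trend.

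Ratios of related genes within a library do not depend on the scaling. For 6 pairs the ratio of counts was tested by an exact permutation test of the F statistic over all 1680 assignments of the 9 libraries to 3 groups, with Benjamini-Hochberg adjustment over the 6. The smallest p this allows is 0.00357, and the smallest for 3 libraries against 3 is 0.1, so single pairs of groups cannot reach the threshold.

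The Gsk3a to Gsk3b ratio, on the log2 scale of counts, was 1.03, 1.03 and 1.04 in aged EGCG, 0.94, 0.94 and 0.86 in aged control and -0.37, -0.17 and -0.41 in young control libraries. Gsk3b had more counts than Gsk3a in every young library and fewer in every aged one, and the 3 groups did not overlap (exact permutation p = 0.00357, adjusted 0.00714). Per length, Gsk3a was 7.67 times Gsk3b in aged EGCG, 7.06 times in aged control and 3.01 times in young control libraries. The age difference of this ratio, 1.23 on the log2 scale in the fitted values, was 0.64 with the length trend removed, the 2 genes being 2260 and 8480 bases long.

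The Irs1 to Irs2 ratio was 2.06, 1.84 and 2.06 in aged EGCG, 1.99, 2.28 and 2.01 in aged control and 1.07, 1.34 and 1.12 in young control libraries. All aged libraries lay above all young ones (exact permutation p = 0.0214, adjusted 0.0257). The fitted age difference was 0.91, and 1.04 with the length trend removed.

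Among receptors, the Insr to Igf1r log2 ratio was -0.23, 0.16 and -0.15 in aged EGCG, -0.39, -0.46 and -0.42 in aged control and -0.71, -0.70 and -0.73 in young control libraries. The groups were separate steps, with Insr highest against Igf1r in aged EGCG and lowest in young control (exact permutation p = 0.00357, adjusted 0.00714). Most of the spread was in aged EGCG, where library 2 alone had more Insr than Igf1r counts. The Igf2r to Igf1r ratio averaged -0.08 ± 0.11 in aged EGCG, -0.26 ± 0.12 in aged control and -0.68 ± 0.039 in young control (SD, n = 3 each; exact permutation p = 0.00714, adjusted 0.0107), the aged groups overlapping. With the length trend removed, the fitted age difference was 0.17 in place of 0.29 for Insr to Igf1r and 0.29 in place of 0.43 for Igf2r to Igf1r.

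Among FOXO factors, the Foxo4 to Foxo3 log2 ratio was -0.47, -0.77 and -0.81 in aged EGCG, -1.09, -0.96 and -1.06 in aged control and -1.23, -1.36 and -1.35 in young control libraries. The groups did not overlap and Foxo4 stood highest against Foxo3 in aged EGCG (exact permutation p = 0.00357, adjusted 0.00714). The fitted age difference, 0.27, was 0.15 with the length trend removed. The Foxo1 to Foxo3 ratio averaged -1.94 ± 0.098 in aged EGCG, -1.80 ± 0.28 in aged control and -1.57 ± 0.074 in young control (SD, n = 3 each) and did not pass the test (exact permutation p = 0.136, adjusted 0.136).

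**Figure D4:**
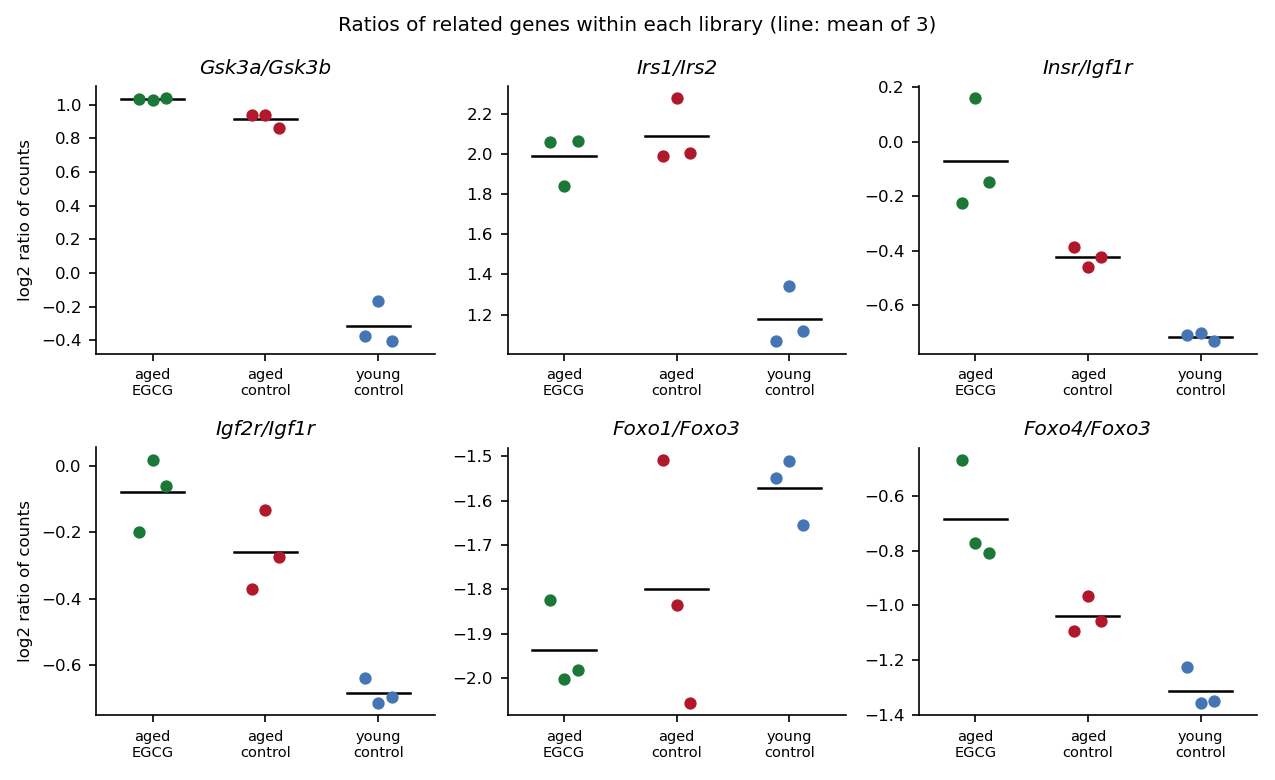
Log2 ratio of counts (y axes) of 6 pairs of related genes in the 3 aged EGCG, 3 aged control and 3 young control libraries; points are libraries and lines group means. Gsk3a/Gsk3b is near 1.03 and 0.91 in the aged groups and -0.32 in young control, and Insr/Igf1r and Foxo4/Foxo3 form 3 separate steps.

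The ligands and AKT give the context of these genes. Igf1 averaged 3.32 ± 1.29 CPM in aged EGCG, 4.99 ± 1.95 CPM in aged control and 8.63 ± 0.528 CPM in young control, and Igf2 averaged 8.79 ± 0.629, 7.51 ± 1.14 and 17.3 ± 2.002 CPM in the same order (SD, n = 3 each). Both ligands fell with age (log2 fold changes -0.79 and -1.20; edgeR adjusted p = 0.00527 and 8.36e-09), and neither was called between aged EGCG and aged control. Ins2, which encodes insulin, had 0 counts in all 6 aged libraries, which allows up to 3 counts or 0.182 to 0.228 CPM in each, and at most 2 counts in a young library; Ins1 was not analysed here. Akt1 averaged 135 ± 5.43 CPM in aged EGCG, 128 ± 4.21 CPM in aged control and 89.6 ± 4.37 CPM in young control, and rose with age with Akt2 (log2 fold changes 0.52 and 0.66; edgeR adjusted p = 1.34e-10 and 1.08e-10). Neither kinase gene was called between aged EGCG and aged control. Rassf2, the gene named in the study's title, had 2.05, 1.37 and 1.46 CPM in aged EGCG, 3.51, 6.20 and 4.88 CPM in aged control and 1.83, 1.74 and 2.02 CPM in young control libraries.

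Of 19 further adaptors and relatives of receptor tyrosine kinases tested, 8 were higher and 2 lower in aged control than in young control, against 35.4% and 33.8% of all genes (median log2 fold change 0.21, all genes 0.02). Grb2, which links receptors to RAS, rose to 126 ± 7.14 CPM in aged control, against 56.1 ± 0.459 CPM in young control (SD, n = 3 each; edgeR adjusted p = 1.01e-21). Gab1, a docking protein, rose 2.27-fold, Nck2, an SH2/SH3 adaptor, 2.27-fold, and Crk, another SH2/SH3 adaptor, 1.48-fold. Between aged EGCG and aged control 0 of the 19 were higher and 1 lower, against 13.8% and 10.3% of all genes (median -0.10, all genes -0.004). It was Insrr, the orphan receptor related to Insr, with a log2 fold change of -0.74 (edgeR adjusted p = 0.0319). Insrr had 3.10 ± 0.357 CPM in aged EGCG and 5.16 ± 0.556 CPM in aged control (SD, n = 3 each).

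Among 17 tested inhibitors of the receptors and IRS proteins, 4 were higher and 2 lower between aged EGCG and aged control (median -0.02; all genes 13.8% higher and 10.3% lower). With age 4 were higher and 7 lower in aged control (median -0.06; all genes 35.4% and 33.8%). Grb10, which binds and inhibits INSR and IGF1R, had 8.24 ± 0.686 CPM in aged EGCG, 2.25 ± 0.203 CPM in aged control and 24.3 ± 0.683 CPM in young control (SD, n = 3 each). It rose 3.66-fold in aged EGCG relative to aged control (edgeR adjusted p = 5.35e-11) and was 10.8-fold lower in aged control than in young control (edgeR adjusted p = 4.78e-22). Trib2, a pseudokinase reported to bind AKT, followed the same order with 18.6 ± 0.665, 8.76 ± 0.968 and 57.9 ± 1.87 CPM (edgeR adjusted p = 2.94e-10 between aged EGCG and aged control). Of the genes named here from the pathway lists, Grb10, Trib2, Trib3, Socs7, Nlk, Map1b, Apc and Apc2 were called lower with age and higher with EGCG. So were 30 of the 31 retina markers, and the part of retinal RNA in these pathway genes was not tested. Trib3 rose 2.24-fold and Trib1 fell 1.33-fold in aged EGCG relative to aged control, and Socs7 fell 2.02-fold and the ubiquitin ligase gene Nedd4 rose 1.58-fold in aged control relative to young control.

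Of 28 tested regulators of FOXO proteins, 1 was higher and 5 lower between aged EGCG and aged control (median -0.07; all genes 13.8% higher and 10.3% lower). With age 10 were higher and 10 lower in aged control (median 0.09; all genes 35.4% and 33.8%), which is near the background. Sgk1, a kinase that phosphorylates FOXO3 at AKT sites, had 67.2 ± 3.24 CPM in aged EGCG, 84.8 ± 2.01 CPM in aged control and 136 ± 2.01 CPM in young control (SD, n = 3 each), and fell in aged EGCG relative to aged control (edgeR adjusted p = 3.72e-05) and in aged control relative to young control (6.08e-14). Nlk, a kinase that phosphorylates FOXO1, rose 1.29-fold with EGCG and fell 2.15-fold with age, and Crebbp, an acetyltransferase of FOXO proteins, fell 1.32-fold with EGCG. The 14-3-3 genes Ywhah and Ywhae, whose proteins hold phosphorylated FOXO in the cytoplasm, rose 1.95-fold and 1.40-fold with age. Foxo6, the remaining FOXO gene, had 2.54 ± 0.651 CPM in aged EGCG, 6.25 ± 0.611 CPM in aged control and 1.55 ± 0.505 CPM in young control (SD, n = 3 each). It fell in aged EGCG relative to aged control (log2 fold change -1.30, SE 0.303; edgeR adjusted p = 0.000804) and was higher in aged control than in young control (2.01, SE 0.315; edgeR adjusted p = 2.70e-07).

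Of 38 tested genes known as FOXO targets, 21 were higher and 7 lower in aged control than in young control (median 0.28), against 35.4% and 33.8% of all genes. The largest changes were in cell cycle inhibitors, which other regulators also control, p53 among them for Cdkn1a. Cdkn1a (p21) had 89.97 ± 3.20 CPM in aged EGCG, 85.3 ± 6.77 CPM in aged control and 1.58 ± 0.255 CPM in young control, and Cdkn2b (p15) had 43.2 ± 0.746, 49.1 ± 2.06 and 3.57 ± 0.417 CPM (SD, n = 3 each). Ccnd1, a cyclin gene that FOXO factors are known to repress, also rose 2.499-fold with age, as did Pink1, a mitophagy kinase, 1.79-fold. Between aged EGCG and aged control 4 of the 38 were higher and 9 lower (median -0.08), against 13.8% and 10.3% of all genes. Sesn3, a sestrin that FOXO factors activate, rose to 233 ± 3.13 CPM in aged EGCG, against 159 ± 12.2 CPM in aged control (SD, n = 3 each; edgeR adjusted p = 2.92e-11). Ccnd1 fell 1.43-fold, Ccnd2, another cyclin gene repressed by FOXO, 1.54-fold, and Bcl6, a transcriptional repressor, 1.54-fold.

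Of 26 partners and substrates of GSK3, 6 were higher and 5 lower between aged EGCG and aged control (median -0.07; all genes 13.8% higher and 10.3% lower). With age 10 were higher and 10 lower in aged control (median 0.11; all genes 35.4% and 33.8%). Ctnnb1, the beta-catenin gene, had 513 ± 19.6 CPM in aged EGCG, 591 ± 7.06 CPM in aged control and 413 ± 10.1 CPM in young control (SD, n = 3 each), with adjusted p of 0.000391 and 4.03e-14 in edgeR for the EGCG and age comparisons. Mcl1, an anti-apoptotic gene, fell 1.41-fold and Dpysl2, a tubulin-binding protein, 1.44-fold in aged EGCG relative to aged control, and Map1b, a microtubule protein of neurons, rose 1.36-fold. Apc and Apc2, scaffolds of the beta-catenin destruction complex, fell 1.95-fold and 3.31-fold with age, and Map1b fell 4.82-fold.

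The genes most like each of the 10 were found by the root mean square difference of log2(CPM + 1), centred on the mean of the 9 libraries, over 13338 genes. Irs1 was nearest to Kctd5 (0.0488) and Slit3 (0.0562), Foxo3 to Eif5 (0.0383) and Akap8l (0.0454), and Gsk3b to Cpt1a (0.0440) and Ndufaf4 (0.0452). Igf1r was nearest to Arglu1 (0.0649) and Kdm6b (0.0693), Foxo4 to Rnasek (0.0710) and Cript (0.0868), and Gsk3a to Apba1 (0.0557) and Ppp4r1 (0.0566). The deviations of these 6 genes themselves had root mean squares between 0.177 (Foxo3) and 0.426 (Irs1). Insr, Igf2r, Irs2 and Foxo1 had root mean squares of 0.105 to 0.174, closer to the differences from their nearest genes. Among the 10 genes, Irs1 and Foxo3 had the highest Pearson correlation over the 9 libraries (0.935) and Igf1r and Gsk3a the lowest (-0.950), values that describe 3 groups of libraries and carry no test.

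In the GENCODE M21 annotation of GRCm38, all 10 are protein-coding. Igf1r (ENSMUSG00000005533.10) spans chr7:67952827-68233668 on the plus strand, and Irs1 (ENSMUSG00000055980.2) spans chr1:82233101-82291416 on the minus strand. Gsk3b (ENSMUSG00000022812.14) spans chr16:38089001-38246084 on the plus strand, and Gsk3a (ENSMUSG00000057177.12) spans chr7:25228258-25237851 on the minus strand. Foxo3 (ENSMUSG00000048756.11) spans chr10:42181841-42276755 on the minus strand, Foxo4 (ENSMUSG00000042903.8) spans chrX:101254528-101260873 on the plus strand and Foxo1 (ENSMUSG00000044167.6) spans chr3:52268336-52353221 on the plus strand. Insr (ENSMUSG00000005534.10) spans chr8:3122061-3279617, Igf2r (ENSMUSG00000023830.14) spans chr17:12682406-12769664 and Irs2 (ENSMUSG00000038894.7) spans chr8:10984681-11008458, all on the minus strand. Exons of 4 of the 10 overlap a gene on the opposite strand, Irs1 by 2822 bases (Gm9747), Gsk3a by 820 bases (9130221H12Rik), Foxo1 by 674 bases (Gm20402) and Irs2 by 162 bases (9530052E02Rik). How strand was used in counting is not stated, so reads of these 4 genes and their antisense partners cannot be told apart.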

How the data were processed

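RNA was sequenced from 9 anterior lens capsule samples, 3 in each of 3 groups given by the sample titles. Per the labels' protocols, libraries were made with a SMARTER mRNA-Seq kit, and GRCm38 (mm10) is the build named, per the submitters' processing notes. The sources used here do not give the aligner, counting tool, annotation or use of strand. Whole-number counts by gene symbol, not normalized, and FPKM values were deposited by the authors. Each of the 138164 nonzero FPKM values was its count over a constant gene length and the library's total, to within 0.01%, so FPKM carries no scaling beyond library size. This holds by construction for 779 genes with a count in only 1 library. The implied lengths were used for levels per kilobase.

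Counts were fitted with edgeR 4.0.16 (R 4.3.3), with 9 libraries in 1 model of 3 group means, TMM scaling, the default expression filter and the quasi-likelihood test. P-values were two-sided and adjusted by Benjamini-Hochberg over 13711 genes, with a call at 0.05. The biological coefficient of variation was 7.89%. Log2 ratios used counts plus 0.5. The code was tested on simulated data. Intervals include no error beyond counting and the spread among libraries. Alternatives were library size only, DESeq2 1.42.0, no filter, scaling to lens fibre genes, removal of the length trend, limma 3.58.1 on log2 FPKM plus 1 or 0.1, fits of 2 groups, a replicate block and leaving out each library.

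The 10 genes and the gene lists were chosen with earlier results of these data known; 2 listed genes are not reported here. All 10 are named, with up to 4 called genes of smallest p from each pathway list in each of the EGCG and age comparisons, the ligands, Akt1, Akt2 and Rassf2, and the 2 nearest genes by pattern. Promoter windows are from RefSeq (GRCm38.p6).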

Additional observations from a re-analysis of the deposited data

How the results depend on the processing

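Between aged EGCG and aged control, 3 of the 10 genes were called, 0 higher and 3 lower. On library size alone 2 were higher and 1 lower (all genes 22.5% and 4.46%), and on lens fibre scaling 4 and 0 (32.8% and 3.2%). With the length trend removed 1 and 3 were called (14.2% and 10.6%). Limma on log2(FPKM + 1) called 1 and 0 (17.5% and 3.7%), and on log2(FPKM + 0.1) 2 and 0 (19.1% and 3.94%). Between aged control and young control, 4 higher and 3 lower became 2 and 5 on library size alone (all genes 21.4% and 47.0%). They became 4 and 4 on lens fibre scaling (23.6% and 44.6%) and 8 and 1 without the length trend (34.0% and 32.8%). Limma gave 2 and 4 under either pseudocount (21.5% and 46.9% with 1, 21.4% and 46.5% with 0.1). Between aged EGCG and young control, 4 higher and 3 lower became 3 and 5 on library size alone and with limma under either pseudocount. All genes had 22.6% higher and 40.6% lower on library size alone. With limma they had 22.8% and 41.0% with the pseudocount of 1, and 22.8% and 40.1% with 0.1. Leaving out 1 library gave 1 to 3 called in the EGCG comparison (0 to 1 higher, 1 to 3 lower), with 1 without aged EGCG replicate 2 (Igf1r), 6 to 7 in the age comparison and 6 to 8 between aged EGCG and young control.

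The direction turned in these cases, which were called with TMM, under the alternative or under both. The cause was not tested. With TMM itself, the only calls among them were Foxo3 with EGCG, Insr and Igf1r with age, and Igf2r between aged EGCG and young control. On lens fibre scaling the EGCG log2 fold changes of Foxo3 (0.015), Akt2 (0.19), Crk (0.16), Nedd4 (0.17), Ywhae (0.15) and Pink1 (0.18) turned positive. On library size alone the age value of Irs2 was -0.28. Without the length trend the age values were 0.23 for Insr, 0.059 for Igf1r and 0.35 for Igf2r, and the values between aged EGCG and young control were 0.23 for Insr, 0.16 for Igf2r and 0.33 for Mcl1. A further 85 of 2430 values of named genes changed sign without a call on either side.

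The counts of all genes called stayed within 1.5 times those with TMM, but the split did not. It was 1894 higher and 1406 lower in the EGCG comparison and became 3086 and 611 on library size alone, 4501 and 439 on lens fibre scaling, 2401 and 507 on log2(FPKM + 1) and 2618 and 540 on log2(FPKM + 0.1). It was 4847 and 4635 in the age comparison and became 2939 and 6442, 3240 and 6120, 2947 and 6424, and 2940 and 6381 in the same order. It was 4424 and 4301 between aged EGCG and young control and became 3102 and 5569 on library size alone, 3131 and 5622 on log2(FPKM + 1), and 3126 and 5497 on log2(FPKM + 0.1).

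The sources used here do not say whether the replicate numbers pair the samples. Same-numbered libraries had correlations of deviations from -0.00826 to 0.0397, which cannot settle it, since a pairing with little effect on expression would look the same. With a replicate block, 1905 genes were called higher and 1433 lower in the EGCG comparison, and 3, 7 and 7 of the 10 genes in the 3 comparisons. All genes had 13.9% higher and 10.5% lower with EGCG and 35.2% and 33.7% with age. Between aged EGCG and young control they had 32.1% and 31.3%. With the block, the Irs1 to Irs2 ratio, with an age difference of 0.92, had an exact permutation p over the 3 groups adjusted to 0.133. That test has 216 assignments, which include exchanges between the aged groups, and these overlap in this ratio. It therefore cannot decide on the age difference alone. All aged libraries lay above all young ones in this ratio. The Foxo1 to Foxo3 ratio passed only without aged control replicate 1 (exact permutation p over the 3 groups adjusted to 0.0357), where its age difference was -0.37. Over single libraries left out this age difference ran from -0.37 to -0.10. The scaling decided the call of small changes such as that of Gsk3a in the EGCG comparison, 0.16 with TMM and 0.36 on lens fibre scaling.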
